A study of Mus musculus with 8 samples.

Results

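The 9 genes described here carry out the life cycle of dopamine in the mouse olfactory bulb. They are Th, Ddc, Gch1, Pts, Spr, Slc18a2, Slc6a3, Maoa and Maob, which make dopamine, supply the pterin cofactor of its synthesis, store it, take it up again and break it down. They were chosen by gene symbol from a table of 19583 entries, and each symbol was found once. RNA was sequenced from whole bulbs at postnatal day 30 in 8 libraries. In 4 of them the mice carried hGFAP-Cre with both copies of Sp8 and of Sp9 floxed (double mutant), and the other 4 came from wild-type littermates, all on a mix of C57BL/6J, 129S6 and CD1. hGFAP-Cre drives the recombinase from a human GFAP promoter in radial glia and astrocytes, so neurons and glia that descend from radial glia can be recombined, whether or not they make dopamine. The labels give Cre and the floxed alleles to the double mutants alone, so their own effects and the loss of Sp8 and Sp9 cannot be told apart. Letters in the labels join the libraries in pairs, A (replicates 1 and 2) and B (3 and 4) in the double mutant and C (1 and 2) and D (3 and 4) in the wild type, without saying whether a letter is 1 animal.

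Dopamine neurons of the bulb are interneurons around the glomeruli, where the axons of the sensory neurons end, and most of them also release GABA. Tyrosine hydroxylase (Th) turns tyrosine into L-DOPA and needs tetrahydrobiopterin, which Gch1, Pts and Spr build from GTP; aromatic L-amino acid decarboxylase (Ddc) then makes dopamine. The vesicular carrier VMAT2 (Slc18a2) loads it into vesicles, the dopamine transporter (Slc6a3) returns it from outside the cell, and the monoamine oxidases (Maoa and Maob) degrade it. Th of the bulb is known for its dependence on sensory input, and it is widely used to mark these cells.

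Depth came to between 11887972 and 19039478 fragments per library, estimated from the step size of the deposited scaled counts, and between 13110 and 13479 genes reached 1 FPKM (fragments per kilobase of transcript, relative to the library's total). The targeted genes followed the labels: Sp8 ranged from 6.15 to 8.06 FPKM in the double mutant and from 29.3 to 31.6 FPKM in the wild type, and Sp9 from 6.24 to 7.27 and from 23.1 to 25.3 FPKM. Markers of mitral and tufted cells, the projection neurons of the bulb, were high in every library, with a summed level of their 6 listed genes of 802 to 1085 FPKM. Xist is transcribed where an X chromosome is inactive. It was near 0 in letter B (0.0538 and 0.0364 FPKM) and between 76.8 and 115 FPKM in the other 6 libraries, so letter B stands apart. Within the double mutant Xist thus went with the letter, while both wild-type letters had it. The labels do not give the sex of the mice. An effect of sex therefore cannot be told from one of the letter or, in part, of the group.

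Of 3 dopamine genes that serve synthesis (Th), storage (Slc18a2) and uptake (Slc6a3), only Slc18a2 passed the test. The stretches from which transcription of these 3 genes starts are shown first. Each runs from 250 bases before to 50 bases after the RefSeq start on GRCm38.p6, 5′ to 3′ on the gene's strand, with capitals at each GC box (GGGCGG), a sequence to which Sp family factors are known to bind, and at each cAMP response element (TGACGTCA), counted on both strands.
Th, chr7:142899946-142900245, minus strand: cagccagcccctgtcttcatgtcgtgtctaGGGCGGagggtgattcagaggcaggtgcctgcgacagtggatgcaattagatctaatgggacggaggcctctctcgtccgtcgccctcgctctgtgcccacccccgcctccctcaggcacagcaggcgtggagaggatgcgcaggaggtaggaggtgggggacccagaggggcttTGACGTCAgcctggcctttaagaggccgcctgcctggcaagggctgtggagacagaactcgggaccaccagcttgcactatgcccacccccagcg
Slc18a2, chr19:59260628-59260927, plus strand: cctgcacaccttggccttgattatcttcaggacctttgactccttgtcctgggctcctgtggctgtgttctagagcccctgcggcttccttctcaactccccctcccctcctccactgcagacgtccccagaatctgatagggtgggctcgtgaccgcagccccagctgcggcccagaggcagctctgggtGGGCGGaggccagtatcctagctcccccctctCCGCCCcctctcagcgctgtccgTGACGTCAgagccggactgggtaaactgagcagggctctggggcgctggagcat
Slc6a3, chr13:73536497-73536796, plus strand: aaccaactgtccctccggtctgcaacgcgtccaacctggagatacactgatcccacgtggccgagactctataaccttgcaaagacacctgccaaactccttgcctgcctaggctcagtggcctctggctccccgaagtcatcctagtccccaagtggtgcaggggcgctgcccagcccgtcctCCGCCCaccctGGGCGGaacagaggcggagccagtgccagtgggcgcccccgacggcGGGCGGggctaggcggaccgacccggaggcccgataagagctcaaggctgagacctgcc

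The Th stretch holds 1 cAMP response element, which begins 45 bases before the start, and 1 GC box, which begins 220 bases before it. In Slc18a2 the cAMP response element begins 4 bases before the start and GC boxes begin at 59 and 27 bases before it. Slc6a3 has 3 GC boxes, at 66, 55 and 9 bases before the start, and no cAMP response element by these letters. The promoter table matched 8 of the 9 genes, all but Maob. Of these 8, the cAMP response element was in 2 (Th and Slc18a2) and the GC box in 7 (all but Ddc), while 1.79% and 35.7% of all 32851 promoters in the table hold them. A match describes the letters in this window and is not a measured binding site.

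The genes of dopamine synthesis and uptake had means at 89.0% (Slc6a3), 96.1% (Th) and 97.1% (Ddc) of the wild-type mean, none of them called, while the storage gene, both breakdown genes and 2 of the 3 cofactor genes were higher. Of the 9 genes, 5 rose (Slc18a2, Maob, Spr, Gch1 and Maoa, by 1.20- to 1.45-fold), 4 did not pass the test (Th, Ddc, Slc6a3 and Pts) and 0 fell. Calls are from a limma fit of log2(FPKM + 0.5) across 14349 genes at an adjusted p below 0.05, and fold changes on this scale understate the change of low genes. By that rule 65.3% of all tested genes were called, 28.8% higher and 36.5% lower. Against these shares 5 of 9 genes were called, all of them higher. The counts given below for other lists stand beside the same shares, and no list was tested against them. The median log2 fold change of the 9 was 0.26, beside -0.04 over all tested genes. All 9 passed the filter on low values. Under upper quartile scaling, where the share of higher calls among all called genes went from 44.1% to 57.3%, 6 of the 9 rose. In bulk RNA fewer or more cells of a type and less or more RNA per cell cannot be told apart. FPKM is given relative to the library's total, so these calls describe shares of the RNA and not amounts per bulb. Whether the fall of other RNA raised these shares was not tested.

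**Figure D1:**
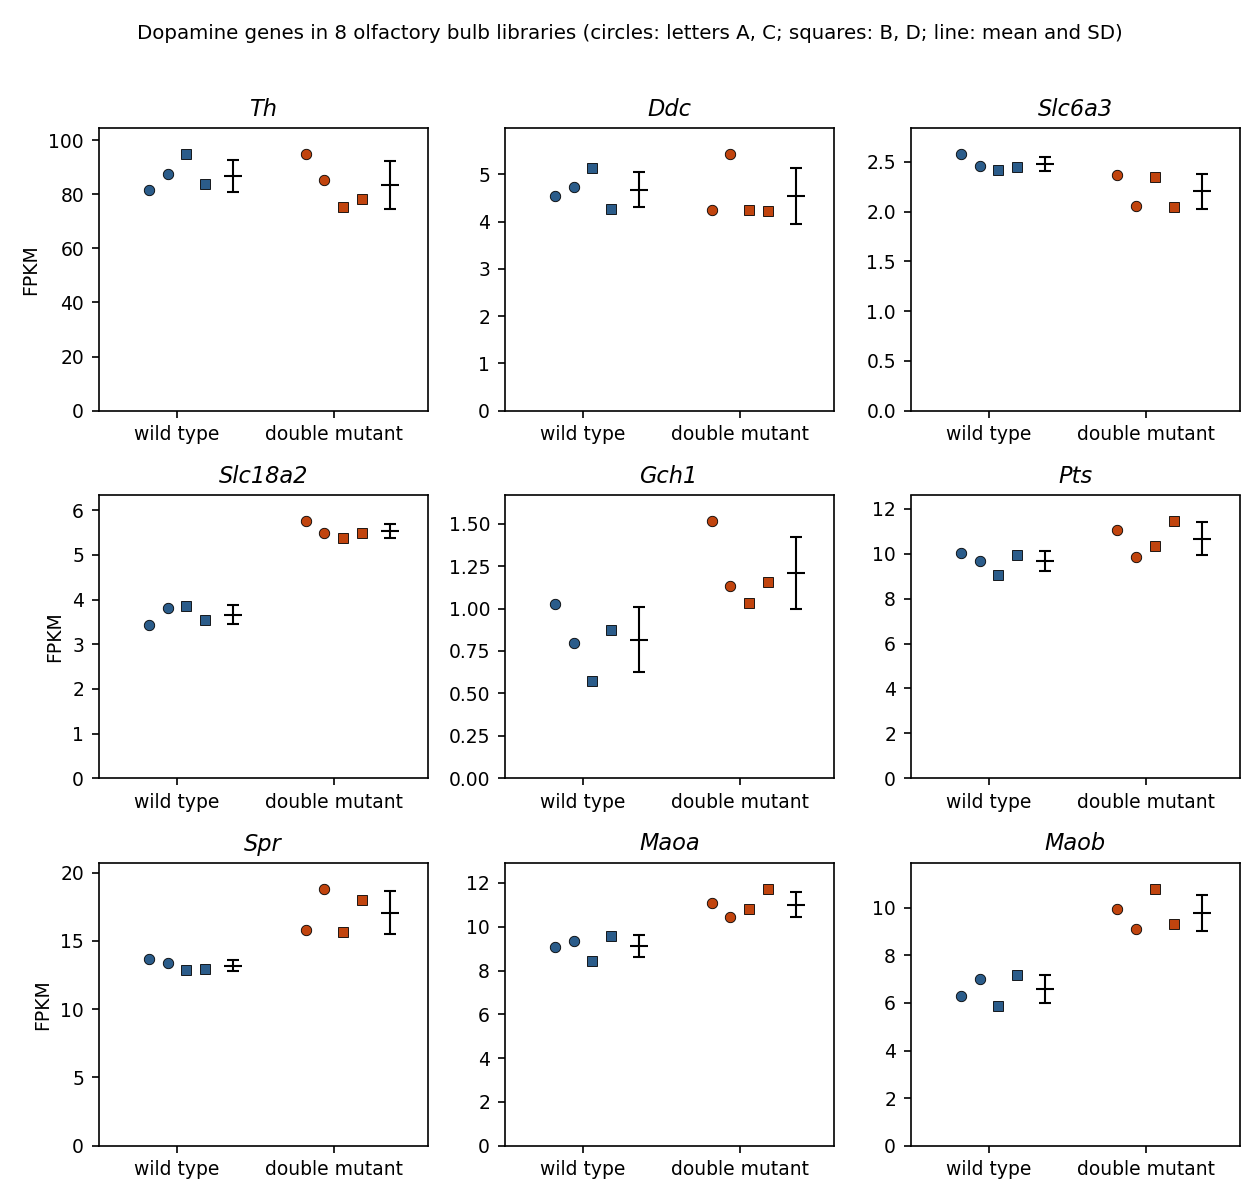
FPKM of the 9 dopamine genes (y axis, from 0) in the 4 wild-type libraries (blue) and the 4 double mutant libraries (orange), with circles for letters A and C, squares for letters B and D, and a line for the mean with its SD. Slc18a2, Spr, Gch1, Maoa and Maob lie above all wild-type values in each double mutant library, Slc6a3 lies lower in all 4, and the values of Th, Ddc and Pts overlap.

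The members spanned a wide range of levels, which FPKM allows to be compared between genes because it is given per length. In the wild type the order was Th (86.9 FPKM), Spr (13.2), Pts (9.68), Maoa (9.11), Maob (6.58), Ddc (4.67), Slc18a2 (3.66), Slc6a3 (2.48) and Gch1 (0.817). Neighbours in this order did not overlap between the 4 libraries, except Pts and Maoa. In the double mutant the order was Th (83.5), Spr (17.1), Maoa (11), Pts (10.7), Maob (9.79), Slc18a2 (5.53), Ddc (4.54), Slc6a3 (2.21) and Gch1 (1.21), where Maoa overlapped Pts, Pts overlapped Maob and Slc18a2 overlapped Ddc. Slc18a2 and Ddc thus changed places in the means. Of all genes listed, 96.6% had a lower mean than Th, against 48.7% for Ddc, 48.7% for Slc18a2 and 39.6% for Slc6a3.

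Th (GRCm38 chromosome 7, 142892752 to 142931128, minus strand), the rate-limiting enzyme, stood at 95, 85.4, 75.1 and 78.3 FPKM across double mutant replicates 1 to 4 and at 81.5, 87.4, 94.9 and 83.8 FPKM across the wild-type ones. The highest double mutant value and the highest wild-type value were almost the same, and the 2 lowest values were both from letter B. The log2 fold change was -0.06 ± 0.07 SE with n = 4 per group (adjusted p = 0.476, limma), and its 95% interval ran from 0.860- to 1.07-fold. Within the double mutant, letter B, which had almost no Xist, averaged 85.1% of letter A, and within the wild type letter D averaged 106% of letter C. The fit without letter A thus set libraries with almost no Xist against wild-type libraries that had it. With letter A left out the log2 fold change was -0.18 and passed (adjusted p = 0.0308, limma), with letter B left out it was 0.055, and over all alternatives the adjusted p ran from 0.0308 to 0.887. The sign also turned with quantile normalization (0.034) and with upper quartile scaling (0.026). Between 1415 and 2379 fragments lay behind each Th value, a counting error of 2.05% to 2.66%, which is smaller than the spread between libraries.

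Ddc (chromosome 11, 11814101 to 11898144, minus strand), which completes the synthesis, measured 4.24, 5.44, 4.24 and 4.23 FPKM in the double mutant and 4.55, 4.74, 5.14 and 4.26 FPKM in the wild type. All wild-type values lay between the lowest and the highest double mutant value, and replicate 2 of the double mutant was the highest of all 8. The log2 fold change was -0.04 ± 0.09 SE (adjusted p = 0.685, limma), with an interval of 0.851- to 1.11-fold. Its sign turned under upper quartile scaling (0.04), without letter B (0.04) and without wild-type replicate 3 (9.56e-05). Relative to Th in the same library, Ddc stood at 5.47% ± 0.78 in the double mutant and 5.38% ± 0.21 in the wild type (SD, n = 4), with overlapping values.

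Of the 3 genes of tetrahydrobiopterin synthesis, 2 rose (Gch1 and Spr) and 1 (Pts) did not pass. Gch1 (chromosome 14, 47153895 to 47189413, minus strand), GTP cyclohydrolase and the first step of the pathway, measured 1.52, 1.13, 1.03 and 1.15 FPKM in the double mutant and 1.03, 0.795, 0.570 and 0.874 FPKM in wild-type bulbs. The groups touched without crossing, with 1.031 FPKM as the lowest double mutant value and 1.026 FPKM as the highest wild-type value. The log2 fold change was 0.38 ± 0.13 SE (adjusted p = 0.025, limma), on 21 to 66 fragments per library, a counting error of 12.3% to 21.8%. The call was lost without double mutant replicate 1 (0.30, adjusted p = 0.0722), without wild-type replicate 3 (0.28, adjusted p = 0.0655), with the letter as a random block (0.38, adjusted p = 0.054), on the means of the letters (0.38, adjusted p = 0.0577), without letter A (0.29) or D (0.27) and under quantile normalization (0.18), in a range of adjusted p from 0.01 to 0.227. The call of Gch1 thus depended on single libraries, while its direction was the same in all 22 alternatives that tested it.

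Spr (chromosome 6, 85130176 to 85137766, minus strand), sepiapterin reductase and the last step, measured 15.8, 18.8, 15.7 and 18.0 FPKM in the double mutant against 13.6, 13.4, 12.9 and 12.9 FPKM in the wild type. Every double mutant value was above every wild-type value, and the spread in the double mutant (SD 1.6 FPKM) was wider than in the wild type (SD 0.374 FPKM). The log2 fold change was 0.36 ± 0.06 SE (adjusted p = 0.00044, limma), and it stayed called in all alternatives (0.31 to 0.44). Pts (chromosome 9, 50521617 to 50528724, minus strand), the pterin synthase of the middle step, measured 11.1, 9.84, 10.4 and 11.5 FPKM against 10.1, 9.66, 9.06 and 9.96 FPKM. These values overlapped, and the log2 fold change of 0.13 ± 0.06 missed the threshold (adjusted p = 0.0543, limma). Pts passed under upper quartile, median ratio and quantile scaling (0.22, 0.18 and 0.19), with the replicate number as a block (adjusted p = 0.039), without double mutant replicate 2 (0.17, adjusted p = 0.0203) and without letter A (0.16), and its adjusted p ran from 0.00512 to 0.206 over the alternatives.

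The other 5 genes listed for this cofactor split. Of these, 1 rose, 1 fell and 3 did not pass. Gchfr, the feedback regulator that binds GTP cyclohydrolase, fell from 3.41 ± 1.09 to 1.73 ± 0.26 FPKM (SD, n = 4), or to 50.7%, a log2 fold change of -0.78 ± 0.16 SE (adjusted p = 0.00169, limma). It moved against the gene of the enzyme it regulates, Gch1. Pcbd1, which recycles the spent cofactor, rose by 0.41 ± 0.09 on the log2 scale (adjusted p = 0.0033, limma), and by 0.24 without letter D, where it was still called. Qdpr, the reductase that completes the recycling and the member with the highest level, measured 71.4 ± 3.5 FPKM in the double mutant and 71.8 ± 5.1 FPKM in the wild type and did not pass.

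**Figure D2:**
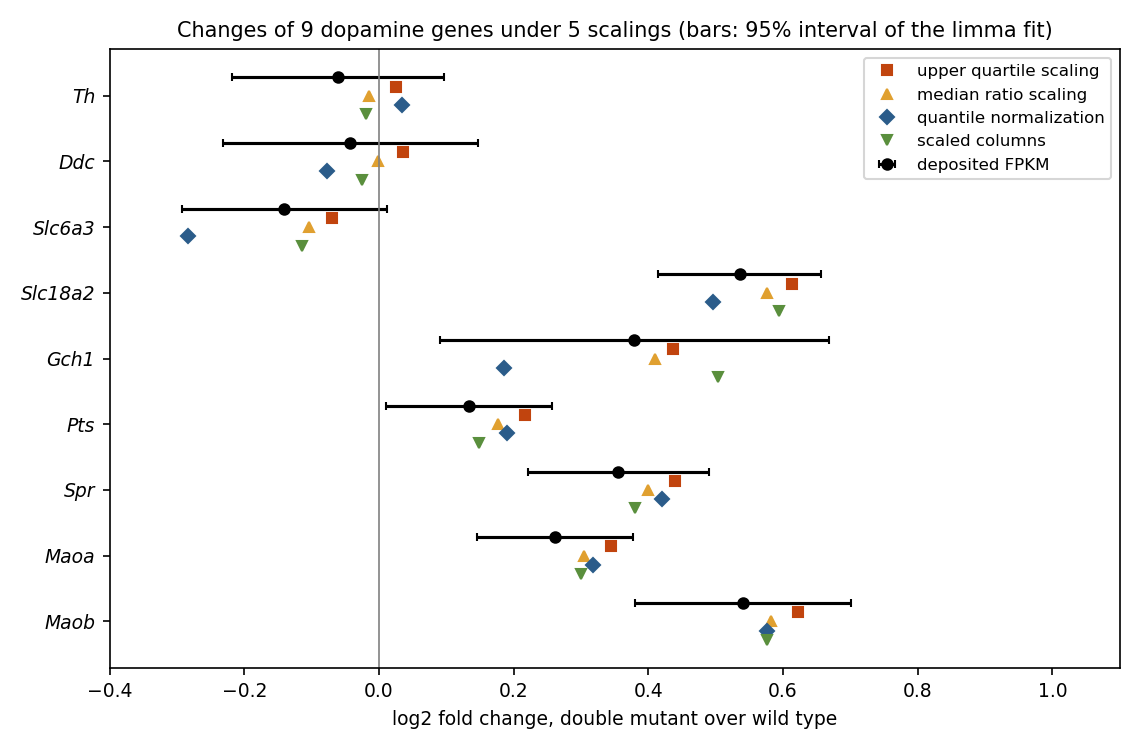
Log2 fold change of each dopamine gene, double mutant over wild type (x axis), for deposited FPKM (black, with the 95% interval of the limma fit) and under 4 other scalings (coloured). The intervals and all 5 points of Slc18a2, Gch1, Pts, Spr, Maoa and Maob lie above 0, whereas the points of Th and Ddc lie on both sides of 0.

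Of the 2 carriers of dopamine the vesicular one rose and the one of the plasma membrane did not pass. Slc18a2 (chromosome 19, 59260896 to 59296012, plus strand), the vesicular carrier, measured 5.76, 5.48, 5.39 and 5.5 FPKM in the double mutant and 3.44, 3.82, 3.87 and 3.54 FPKM in wild-type bulbs. The lowest double mutant value was well above the highest wild-type value, and the spread within each group was narrow (SD 0.158 and 0.208 FPKM). The mean reached 151% of wild type, with a log2 fold change of 0.54 ± 0.05 SE (adjusted p = 1.05e-05, limma) that lay between 0.49 and 0.61 in all alternatives, all of them called. Its exons share 111 bases with Gm29261 on the opposite strand, and with no stated strand setting reads from there cannot be assigned.

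Slc6a3 (chromosome 13, 73536747 to 73578672, plus strand), the plasma membrane transporter, measured 2.37, 2.06, 2.35 and 2.05 FPKM in the double mutant and 2.58, 2.46, 2.42 and 2.45 FPKM in the wild type. Each double mutant value was below each wild-type value. The difference was small, a log2 fold change of -0.14 ± 0.07 (SE), and it did not pass the limma test (adjusted p = 0.0947), while an exact permutation test over the 70 assignments of the libraries gave p = 0.0286, the smallest value it can give. The lack of overlap is common here, since 59.1% of all tested genes showed it, as did 6 of the 9 dopamine genes. Between 99 and 145 fragments per library leave a counting error of 8.3% to 10.1% for a single library. A mean over 4 libraries has a smaller counting error, and the double mutant mean was 89.0% of the wild-type mean. Slc6a3 passed under quantile normalization only (-0.28, adjusted p = 0.00559), with adjusted p-values of up to 0.401 in the other alternatives.

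Ratios within a library do not depend on how the library was scaled. Slc18a2 relative to Th was 6.06%, 6.42%, 7.17% and 7.03% in the double mutant and 4.22%, 4.37%, 4.08% and 4.22% in the wild type, without overlap. Slc6a3 relative to Slc18a2 went from 67.9% ± 5.5 in the wild type to 39.9% ± 3.1 in the double mutant (SD, n = 4), also without overlap. Slc6a3 relative to Th overlapped between the groups (2.66% ± 0.32 and 2.87% ± 0.26). These ratios between members were not tested.

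Among the 7 other listed carriers of monoamines, 4 were below the filter. They included the plasma membrane carriers of noradrenaline and serotonin, Slc6a2 and Slc6a4, with means of at most 0.143 FPKM in either group. Of the 3 tested, 2 rose. The organic cation transporter gene Slc22a2, which takes up monoamines with low affinity, rose from 2.24 ± 0.11 to 6.04 ± 0.43 FPKM (SD, n = 4), a log2 fold change of 1.25 ± 0.06 SE (adjusted p = 6.61e-08, limma). Slc22a3, of the same family, rose by 0.38 ± 0.13 on the log2 scale (adjusted p = 0.0222, limma) in 1.03 ± 0.12 against 0.682 ± 0.197 FPKM. Its values overlapped, it was not called without double mutant replicate 2, wild-type replicate 2 or 4, or letter A or C, with the letter as a random block or under quantile normalization, and its adjusted p ran from 0.00337 to 0.248. Slc29a4, a monoamine carrier of the plasma membrane, measured 9.83 ± 0.55 and 9.43 ± 0.55 FPKM and did not pass.

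Both oxidases rose, Maob by 0.54 and Maoa by 0.26 on the log2 scale, and the difference between these was not tested. Maob (chromosome X, 16709282 to 16817366, minus strand), known for its expression in astrocytes, measured 9.93, 9.10, 10.8 and 9.31 FPKM in the double mutant and 6.28, 7.0, 5.88 and 7.16 FPKM in the wild type. No values overlapped, and the log2 fold change was 0.54 ± 0.07 SE (adjusted p = 7.66e-05, limma), between 0.49 and 0.62 in the alternatives. Maoa (chromosome X, 16619698 to 16687818, plus strand) measured 11.1, 10.4, 10.8 and 11.7 FPKM against 9.08, 9.36, 8.43 and 9.56 FPKM, again without overlap, with a log2 fold change of 0.26 ± 0.05 SE (adjusted p = 0.00125, limma) and a range of 0.23 to 0.34. In the wild type Maob stood at 72.1% ± 3.1 of Maoa and in the double mutant at 89.0% ± 8.5 (SD, n = 4), without overlap. Both genes lie on the X chromosome, next to each other, and letter B, which had almost no Xist, averaged 105% of letter A for Maoa and 106% for Maob.

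Astrocyte markers rose in the same libraries as Maob. All 8 listed markers rose, with a median log2 fold change of 0.64, and their summed level lay between 1353 and 1398 FPKM in the double mutant and between 904 and 1003 FPKM in the wild type. Gja1, the gap junction gene, went from 95.9 ± 1.8 to 189 ± 5.2 FPKM, Aqp4, the water channel gene, rose by 1.02 on the log2 scale, and Aldoc, the most abundant of the 8, rose by 0.26. Maob relative to Aldh1l1 was 37.6% ± 3.5 in the double mutant and 36.4% ± 3.5 in the wild type, with overlap, whereas relative to Gja1 it went from 6.85% ± 0.54 to 5.18% ± 0.50 (SD, n = 4), without overlap. These 2 reference genes were chosen after their values were seen. All 7 endothelial and mural markers rose too (median 0.73, summed level of 338 to 378 against 192 to 200 FPKM), with Cdh5 up by 0.73 and Vtn up by 0.96. The part of these cells in the rise of Maoa and Maob was not tested.

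Of 5 other enzymes that break down dopamine or its aldehyde, 3 rose and 2 did not pass, where 65.3% of all tested genes were called. Aldh1a1, an aldehyde dehydrogenase of dopamine neurons and of other cells, rose from 15.4 ± 0.4 to 25.2 ± 2.4 FPKM (SD, n = 4), a log2 fold change of 0.68 ± 0.06 SE (adjusted p = 3.23e-06, limma). The mitochondrial aldehyde dehydrogenase gene Aldh2 rose by 0.58 and the aldehyde reductase gene Akr1a1 by 0.10 (0.19 under upper quartile scaling), the latter not called on the means of the letters (adjusted p = 0.0638, range 0.00025 to 0.0638).

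Dopamine receptor genes were low. Of 5 listed, 3 were tested, 2 rose and 1 did not pass. Drd2, which also acts as the autoreceptor of dopamine neurons and sits on the endings of sensory neurons in the bulb, went from 1.40 ± 0.16 to 2.14 ± 0.30 FPKM (SD, n = 4) and rose by 0.47 ± 0.10 on the log2 scale SE (adjusted p = 0.00177, limma). Drd5 went from 0.552 ± 0.190 to 1.21 ± 0.18 FPKM and rose by 0.71 ± 0.15 (adjusted p = 0.00159, limma). With the filter at 2 FPKM none of the receptor genes was tested. Drd1, given under its older symbol Drd1a, measured 1.18 ± 0.21 and 1.08 ± 0.12 FPKM and did not pass.

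The level of Th was set against the genes of GABA, the other transmitter of these cells and that of the granule cells. Gad1, Gad2 and Slc32a1, which make GABA and load it into vesicles, all fell, by 1.25, 0.70 and 1.18 on the log2 scale. Th relative to Gad1 in the same library was 48.3%, 48.7%, 35.3% and 36.8% in the double mutant and 17.0%, 18.0%, 20.2% and 18.3% in the wild type. Every double mutant ratio was above every wild-type ratio, and the 2 libraries of letter A were above those of letter B. The ratio was 2.28-fold higher on the log2(FPKM + 0.5) scale, and that to Gad2 and to Slc32a1 was 1.55- and 2.17-fold higher. For each of the 3 ratios the exact permutation test (two-sided, all 8 libraries) gave p = 0.0286, also 0.0286 after Benjamini-Hochberg adjustment over the 3, which is the smallest value 4 against 4 libraries allow. Libraries of 1 letter may not be exchangeable, and with any letter left out the smallest possible p is 0.0667. Gad1, Gad2 and Slc32a1 stood at 42.2%, 61.5% and 43.9% of the wild-type mean without overlap, and Th at 96.1%. The separation of the ratios follows from the fall of these GABA genes, so the p-values add nothing about Th. How many other genes give the same result was not tested.

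**Figure D3:**
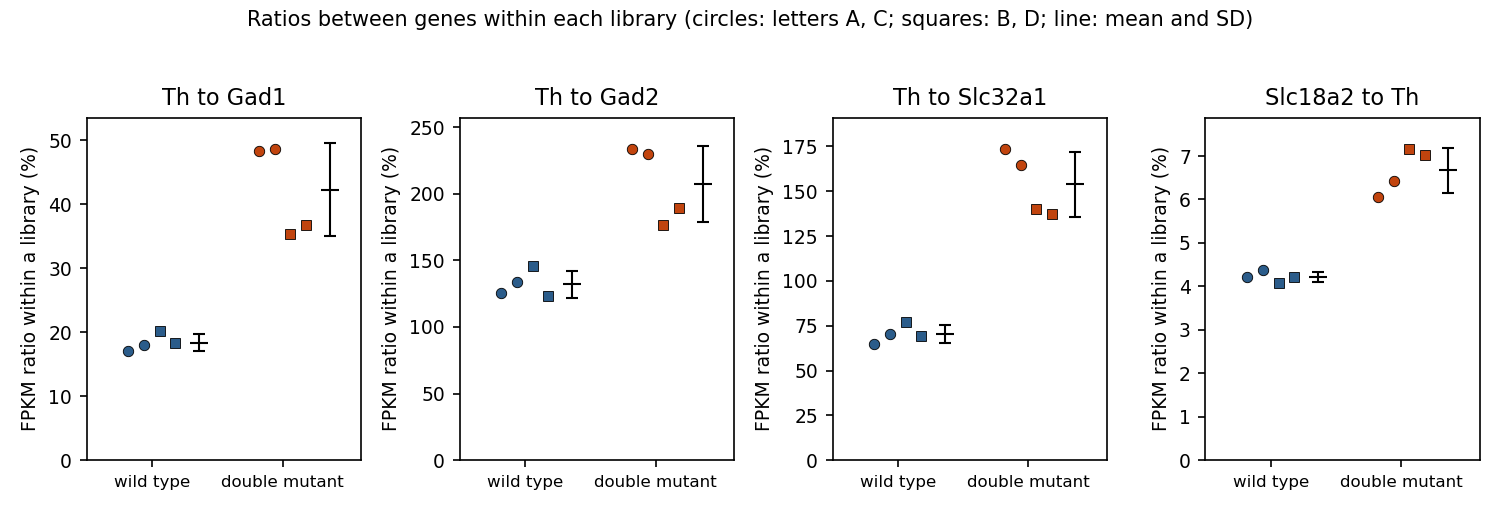
Ratio of 2 genes' FPKM within each library, in percent (y axis, from 0), for Th to Gad1, Th to Gad2, Th to Slc32a1 and Slc18a2 to Th, in wild type (blue) and double mutant (orange), with circles for letters A and C, squares for letters B and D, and a line for the mean with its SD. All 4 ratios are higher in every double mutant library, and letters A and B separate within the double mutant.

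Transcription factors known for the dopamine cells of the bulb fell while Th did not pass the test. Of 8 listed factors, 6 fell and 2 did not pass, with a median log2 fold change of -0.87. Meis2, a cofactor of Pax6 in these cells, went from 102 ± 2.5 to 30.6 ± 2.2 FPKM (SD, n = 4). It fell by 1.73 on the log2 scale, and Dlx1, a factor of bulb interneurons, fell by 1.32. Nr4a2, which binds the Th promoter in midbrain neurons, fell to 50.4% and Etv1 to 56.9% of the wild-type mean, and Pax6 stood at 96.7% and did not pass. Nr4a2, Etv1 and Pax6 were named after their values were seen. Many of these factors are also expressed in granule cells, which outnumber dopamine cells in the bulb. Which cells lay behind the fall of these factors was not tested.

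Genes induced by neuronal activity fell as well. All 8 listed fell, with a median log2 fold change of -1.52, and their summed level lay between 159 and 167 FPKM in the double mutant and between 419 and 478 FPKM in the wild type. Egr1, a zinc finger factor, went from 120 ± 5.9 to 38.8 ± 2.3 FPKM (SD, n = 4) and fell by 1.62 on the log2 scale. Arc, a regulator of synapses, fell by 1.88. The GABA genes, which granule cells also use, fell in the same libraries. Which cells lay behind the fall of the activity-induced genes was not tested. Markers of the olfactory sensory neurons, whose axons drive the glomeruli, were higher: all 4 rose, with a median of 0.92, with Stoml3, a channel regulator, up by 1.21, Gng13, a G protein subunit, up by 0.93 and S100a5, a calcium-binding protein, up by 0.72. Projection neuron markers rose in 5 of 6 cases (median 0.68), with Eomes up by 0.87, Slc17a6 by 0.90 and Slc17a7, the most abundant, by 0.56. Of 4 genes listed for other superficial cells, 2 fell (Calb2 by 0.72 and Trh by 0.84). The other 2 did not pass, among them Cck with 303 ± 7.5 and 276 ± 26 FPKM. Whether the RNA of these 4 genes came from superficial cells was not tested. Cck passed under upper quartile, median ratio and quantile scaling, with the filter at 2 FPKM, and without wild-type replicate 1 (0.19), wild-type replicate 2 (0.17) or letter C (0.25). Its change was 0.093 without wild-type replicate 4 and 0.026 without letter D (adjusted p = 0.582, limma).

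**Figure D4:**
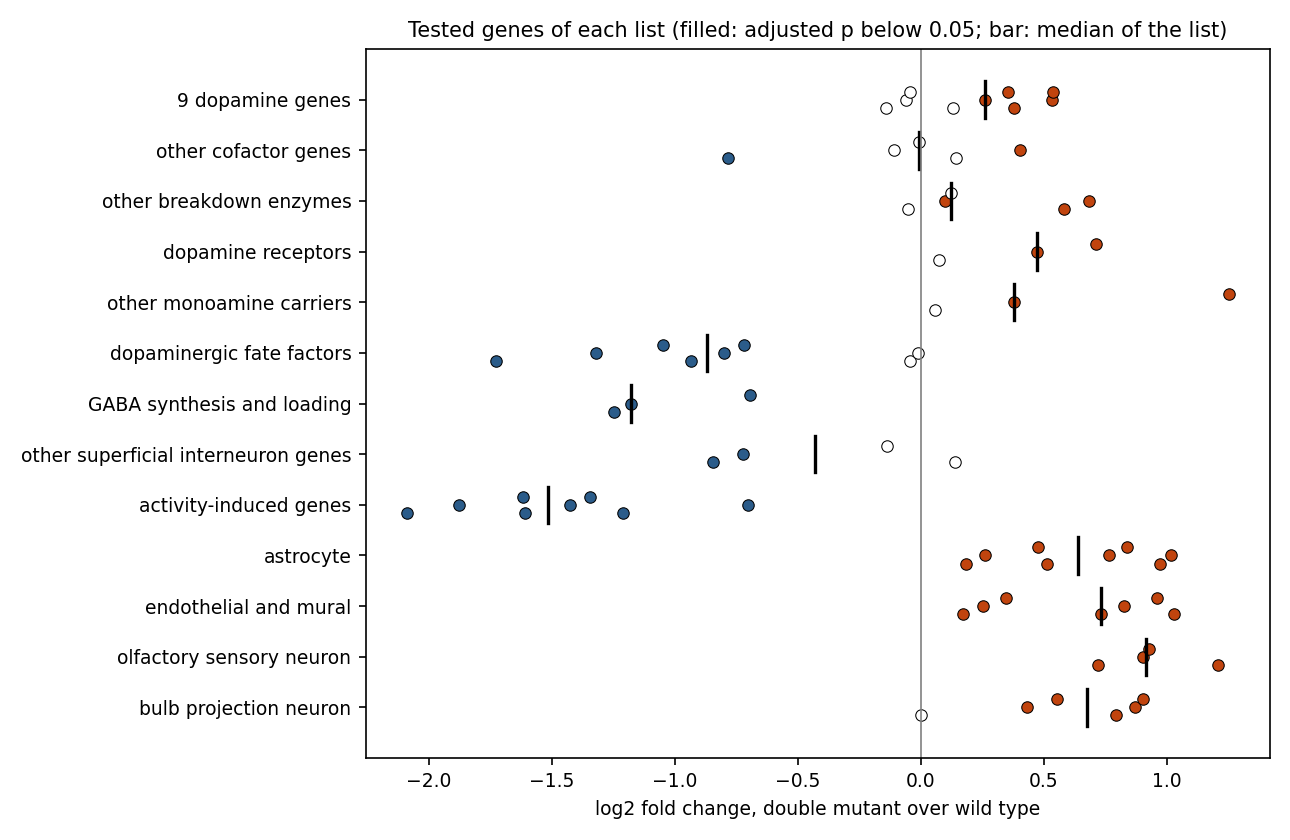
Log2 fold change, double mutant over wild type (x axis), of each tested gene of 13 gene groups (rows), filled where the limma adjusted p was below 0.05 (orange higher, blue lower) and white where it was not, with a bar at the median of the group. The dopamine genes lie between -0.14 and 0.54, above all 3 GABA genes and all 8 activity-induced genes.

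Markers of other monoamine cells, mast cells and midbrain dopamine neurons were low. Of the 6 listed genes of serotonin, noradrenaline, adrenaline and histamine cells, 5 were in the table and 0 reached the filter, with a summed level of 1.76 to 2.49 FPKM in the double mutant and 0.778 to 1.20 FPKM in the wild type. The highest over all 8 libraries was Pnmt, of adrenaline synthesis, with 0.785 ± 0.527 and 0.194 ± 0.135 FPKM. Mast cells also use Slc18a2, and their 6 listed markers summed to between 0.704 and 1.73 FPKM in the double mutant and between 0.118 and 0.319 FPKM in the wild type, without overlap, with Mcpt4 highest over all 8 libraries at 0.463 ± 0.253 against 0.0497 ± 0.0339 FPKM and Fcer1a listed at 0 in all 4 double mutant libraries. Their part in the rise of Slc18a2 was not tested. Of 7 factors of midbrain dopamine neurons, 5 were in the table and 0 reached the filter. Their sum stayed between 0.456 and 1.05 FPKM over the 8 libraries. En2, the highest over all 8 libraries, measured 0.295 ± 0.038 FPKM in the double mutant and 0.444 ± 0.027 FPKM in the wild type. Lmx1b went the other way, with 0.431 ± 0.200 and 0.104 ± 0.117 FPKM and overlapping values. Lmx1a was also higher in the double mutant (0.0271 and 0.00514 FPKM). En1 and Pitx3 were listed at 0 in all 4 double mutant libraries, but also in wild-type replicates 2 and 4.

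The genes whose pattern over the 8 libraries was most like that of Th did not include another dopamine gene. By Pearson's r of log2(FPKM + 0.5), among the 12481 genes whose mean reached 1 FPKM, they were Tpgs1 (0.99), Zkscan17 (0.97), Lama5 (0.97), Mum1 (0.94) and Wibg (0.93). Like Th, Tpgs1 was lowest in double mutant replicate 3, with 39.8 FPKM, and its 2 highest values were in double mutant replicate 1 (48.1 FPKM) and wild-type replicate 3 (49.2 FPKM). Among the members, r with Th was 0.40 for Ddc, 0.22 for Slc6a3 and between -0.13 and -0.40 for the other 6. The counting error was 7.52% to 9.81% for Ddc and 8.30% to 10.1% for Slc6a3. Th itself varied little, with an SD on the log2 scale of 0.149 in the double mutant and 0.0953 in the wild type. A low r of Ddc or Slc6a3 therefore does not show that they vary apart from Th. The genes most like Slc18a2 were Smpd2, Cmtm3, Lrp5, Gpr56 and Bgn, with r between 0.9968 and 0.9985, and the members most like it were Maob (0.91), Spr (0.87) and Maoa (0.87). These r describe 8 libraries in 2 groups, so those with Slc18a2 mostly reflect the difference between the groups. The top r with Th are the highest among 12481 genes over only 8 libraries, and a search of this size can give high r by itself. Shared regulation with Th was not tested.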

How the data were processed

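FPKM values per gene and library were deposited by the authors. Per the submitters' processing notes TopHat, Cufflinks 2.1.1 and GRCm38.p4 were used, with no role or order given, and for the annotation, strand setting and filters the sources used here give nothing. Beside each FPKM column the authors deposited another, named a count, which holds a scaled signal: at least 98.6% of its low values were whole multiples, within 0.02, of 1 step per library. It served for depth and an alternative fit, and no count model was used.

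The whole table was fitted with limma 3.58.1 (R 4.3.3) on log2(FPKM + 0.5), group as the only term, variances trended on the mean, for the 14349 genes whose mean over all 8 libraries reached 0.5 FPKM. Two-sided p-values were adjusted by Benjamini-Hochberg over these genes, and the fit was tested on simulated data. Single values were tested with exact permutation tests (Python 3.11.15, scipy 1.17.1). Libraries of 1 letter differed by a median chi-square of 1.17 to 1.44 times its expectation (genes with a sum of at least 20) and those of different letters within a group by 1.56 to 2.35 times, so libraries cluster by letter. All 8 were kept as samples, since no pair agreed within sampling noise, which does not show that they are independent, and fits with the letter as a block or averaged were alternatives. The labels do not say which came from separate animals, so the spread behind the p-values is that between libraries and may be technical. Counting errors cover counting alone.

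The 9 members and 15 lists of 89 genes were chosen with earlier results of these data known. Named are the 9 members, the 2 genes of each list with the smallest p and the one with the highest mean, the 3 GABA genes, Xist, Sp8, Sp9, and the 5 genes most like Th and Slc18a2, without olfactory receptors, small RNAs, pseudogenes, clones and predicted genes. Other genes were named after their values were seen. Coordinates are from GENCODE M21 (GRCm38), counted from 1, and promoters from RefSeq (GRCm38.p6). Alternatives were other pseudocounts, filters and scalings, the scaled columns, blocks, and fits without single libraries or letters. The values of 1 listed gene are not reported here.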

Additional observations from a re-analysis of the deposited data

Results flagged for a closer look

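In groups of 4, a library is named here when its gap to the nearest other value divided by the group's range (Dixon's ratio) is over the critical value at 95%. Of 82 groups of named genes 7 met this, where chance alone gives about 1 in 20. Ddc in double mutant replicate 2 had a ratio of 0.991, at 5.44 FPKM against 4.23 to 4.24 FPKM in the other 3. The remaining 6 were Akr1a1 in wild-type replicate 2 (0.859), Aqp4 in wild-type replicate 3 (0.909), Drd5 in wild-type replicate 4 (0.83), Gad2 in wild-type replicate 4 (0.897) and Slc17a6 in double mutant replicate 3 (0.884) and wild-type replicate 3 (0.83).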

How the results depend on the processing

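Slc18a2, Spr, Maoa and Maob kept their direction and their call in all 23 alternatives. The number of dopamine genes that rose was 4 to 6, and 1 fell under quantile normalization (Slc6a3) and 1 without letter A (Th). Th changed by 0.026 under upper quartile scaling, 0.034 under quantile normalization, 0.055 without letter B and -0.18 without letter A. Ddc changed by 0.036 under upper quartile scaling and 0.039 without letter B, and by -0.12 to 9.56e-05 when single libraries were left out. Qdpr turned to 0.079 under upper quartile, 0.037 under median ratio and 0.10 under quantile scaling, 0.033 in the scaled columns and 0.064 without letter D, and ranged from -0.036 to 0.038 without single libraries. The cause was not tested. The log2 ratio of Th to Gad1 was 0.97, 1.40, 1.12 and 1.26 without letter A, B, C and D, that to Gad2 was 0.46, 0.81, 0.61 and 0.66, and that to Slc32a1 was 0.98, 1.26, 1.06 and 1.18, where the exact p cannot go below 0.0667. Replicate numbers were shared between the groups without pairing them (correlation of same-numbered deviations -0.052 to 0.005), and with the replicate block 4045 genes were higher and 5144 lower, against 4127 and 5237, and Pts was added to the dopamine genes that rose. With the letter as a random block (within-letter correlation 0.25) the counts were 3723 and 4748, and on the means of the letters 3491 and 4202. At 21 to 66 fragments per library Gch1 is the member that depth limits most.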
